A study of Mus musculus with 7 samples.

Results

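The genes described here are 10 transcripts of the circadian clock of the mouse liver: the activators Arntl and Clock, the repressors Per1, Per2, Per3 and Cry1, the nuclear receptors Nr1d1 and Nr1d2, and the output factors Dbp and Tef. They were chosen by exact gene symbol in the platform's annotation, and all 10 were found, each read by 1 probe, among 16468 named genes and 22218 features in all. Liver RNA was profiled on 2-colour arrays from 3 mice carrying a Zfp90 transgene (1 female and 2 males), and from 4 WT littermates (1 female and 3 males). Every array paired the RNA of 1 animal (Cy5) with the same reference (Cy3), liver RNA pooled from 4 WT mice that included both sexes. The promoter that drives the transgene, the strain, the age of the animals and the hour at which livers were taken are not given in the sources used here. All values below are log2 ratios of an animal to the pool, so 0 means the level of the pool and 1 means a doubling.

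In the mouse liver clock, Arntl (the gene of BMAL1) and Clock encode the partners of the activator that binds E-box elements and turns on the Per, Cry and Nr1d genes as well as Dbp and Tef. The Per and Cry proteins then block that activator, and the Nr1d proteins (REV-ERB alpha and beta) repress Arntl through ROR elements. Transcripts of Arntl therefore peak at another time of day than those of Nr1d1, Dbp and the Per genes, so a liver taken at a different hour from the pool would be high in one set and low in the other. Dbp and Tef are transcription factors of the PAR bZIP family, which bind D-box elements in liver genes of metabolism and detoxification.

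The letters of these elements in the 250 bases before the start of transcription are shown for the member with the widest range over the animals (Nr1d1), for one of the narrowest (Per3), and for the only member that held 2 kinds of element (Per1). RefSeq promoters (build GRCm38.p6) were matched for 9 of the 10 members, with 14 start sites in all, and Per2 was the member without one. Capitals mark the E-box CACGTG, the core of the ROR element AGGTCA and the D-box TTATGTAA or TTACGTAA, each searched on both strands.
Nr1d1 (chr11:98775378-98775627, minus strand): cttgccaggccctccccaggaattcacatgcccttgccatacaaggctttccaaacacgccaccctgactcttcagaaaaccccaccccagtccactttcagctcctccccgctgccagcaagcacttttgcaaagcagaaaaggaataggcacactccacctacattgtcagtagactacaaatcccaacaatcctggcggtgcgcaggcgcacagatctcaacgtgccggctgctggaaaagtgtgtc
Per3 (chr4:151044666-151044915, minus strand): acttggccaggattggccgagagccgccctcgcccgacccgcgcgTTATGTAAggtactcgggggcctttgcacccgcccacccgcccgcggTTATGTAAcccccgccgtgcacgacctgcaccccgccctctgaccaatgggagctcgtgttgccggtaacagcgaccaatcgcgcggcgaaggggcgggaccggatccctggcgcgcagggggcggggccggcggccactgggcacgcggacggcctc
Per1 (chr11:69098699-69098948, plus strand): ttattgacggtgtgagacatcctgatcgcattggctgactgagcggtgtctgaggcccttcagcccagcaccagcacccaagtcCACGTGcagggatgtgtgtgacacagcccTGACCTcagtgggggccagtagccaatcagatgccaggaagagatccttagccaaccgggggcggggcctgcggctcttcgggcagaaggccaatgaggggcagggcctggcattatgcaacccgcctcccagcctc
The E-box stood in 4 of the 14 member promoters (of Cry1, Per1 and Tef) and in 6.02% of all 32851 promoters of this length. The ROR core stood in 3 of the 14 (of Clock, Nr1d2 and Per1) and in 14% of all, and the D-box in 1 of the 14 (of Per3) and in 0.931% of all. None of these letters overlapped one another in the promoters printed. A match describes the letters in this window, and Nr1d1 held none of them there.

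The sign of the ratios was checked with the Y-linked gene Kdm5d, which read -2.54 in the transgenic female and -3.22 in the WT female, against 0.14 to 0.66 in the 5 males. Positive values were therefore read as higher in the animal than in the pool. Zfp90 read 0.34, 0.58 and 0.45 in the transgenic female, male 1 and male 2, against 0.37 in the WT female and at most -0.11 (lowest -0.29) in the 3 WT males. Transgenic animals are given in this order throughout. The array labelled WT female thus read like a transgenic one in this gene, and differences between genotypes are therefore also given without that array, as the difference in the males alone. Leaving out either female leaves the same comparison as the 5 males alone, since the remaining female sets only the term for sex. Array medians lay between -0.01 and 0.03. Signal over background is unknown for every probe, so a ratio near 0 does not tell a transcript at the level of the pool from a dim probe. The number of arrays limits the precision. A ratio to a liver pool also gives no level, so the tissue could not be checked by the level of hepatocyte markers. In liver RNA, fewer cells of a type and less RNA per cell cannot be told apart.

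Of the activators, Clock stayed near the pool in all animals, and Arntl within 0.24 log2 units of it. The SD of Arntl over the animals exceeded that of 56.8% of all features. Arntl read 0.24 in the transgenic female and -0.14 and -0.11 in the transgenic males, against 0.20 in the WT female and -0.22, -0.11 and -0.15 in WT males 2, 3 and 4. Both females lay above the pool and all 5 males below it, while the genotypes overlapped. Clock, the partner of BMAL1, read 0.02, -0.03 and 0.01 in the transgenic female and males 1 and 2, against -0.02 in the WT female and -0.08, -0.04 and 0.02 in the WT males. No animal left a band of 0.11 log2 units, the narrowest range of the 10 members, and only 0.297% of all features had a smaller SD over the 7 animals. The relative of Clock that can replace it, Npas2, read 0.24, -0.06 and 0.07 in the transgenic animals and -0.07 to 0.00 in the WT animals.

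Of the repressors, Per2 varied most. It read -0.82 in the transgenic female and 0.12 and 0.35 in the transgenic males, against 0.40 in the WT female and 0.21, -0.34 and 0.00 in the WT males. The transgenic female was the lowest of the 7, and the WT female the highest. The SD of Per2 over the animals exceeded that of 94.1% of all features. Per1, which also answers acutely to glucocorticoids, read 0.12, 0.16 and 0.10 in the transgenic female and males, against 0.31 in the WT female and -0.07, 0.05 and -0.14 in the WT males. Both transgenic males lay above all 3 WT males, as in 11.2% of all features (11.4% had them below, as did 0 members), and the WT female lay above every other animal. Per3, a weaker partner in the loop, read -0.06, -0.02 and -0.12 in the transgenic animals, against -0.07 in the WT female and 0.02, -0.03 and -0.04 in the WT males, a range of 0.14. Cry1, the late repressor of the activator, read -0.35, -0.06 and 0.05 in the transgenic animals, against -0.01 in the WT female and 0.16, -0.02 and 0.13 in the WT males. The transgenic female was again the lowest, and the genotypes overlapped.

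The nuclear receptor Nr1d1 had the widest range of the members, 1.38 log2 units or 2.61-fold, and an SD above that of 96.9% of all features. It read 0.19 in the transgenic female and -0.87 and -0.42 in the transgenic males, against 0.05 in the WT female and 0.47, -0.51 and 0.51 in WT males 2, 3 and 4. The low values were those of both transgenic males and of WT male 3, so the genotypes overlapped. Its paralogue Nr1d2 did not share this pattern, at 0.11, -0.07 and -0.32 in the transgenic animals, against 0.08 in the WT female and -0.07, 0.26 and -0.30 in the WT males. WT male 3, low in Nr1d1, was the highest animal in Nr1d2, and WT male 4, highest in Nr1d1, read -0.30 there.

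The output factors were close to the pool in every animal. Dbp, whose transcript is known for one of the strongest daily rhythms in mouse liver, read 0.04, 0.08 and -0.12 in the transgenic animals, against -0.04 in the WT female and 0.08, 0.03 and -0.07 in the WT males. Its highest and lowest animals, WT male 2 and transgenic male 2, differed 1.16-fold. Tef read 0.06, -0.05 and -0.06 in the transgenic animals, against 0.07 in the WT female and -0.07, 0.08 and -0.17 in the WT males. The SD of Dbp exceeded that of 7.91% of all features, and that of Tef 12.7%. Of the 10 members, 5 had an SD above the median of all features (0.166), and 6 had a range under 0.5, as did 55.5% of all features.

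**Figure D1:**
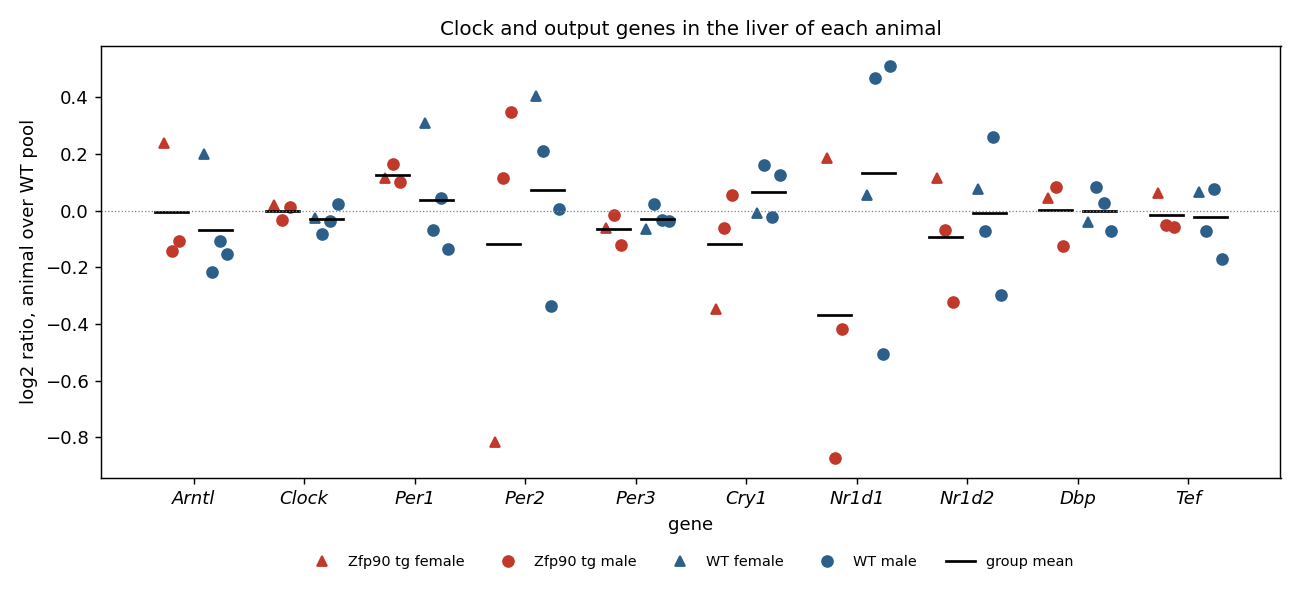
Log2 ratio to the WT pool (vertical axis) of the 10 clock genes (horizontal axis), 1 point per animal, with Zfp90 tg animals left of WT animals, triangles for females, circles for males and bars for the mean of each genotype. Per2 and Nr1d1 spread over 1.22 and 1.38 log2 units, while Clock and Per3 stay within 0.11 and 0.14.

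The comparison of genotypes asks whether the clock differs in livers with the Zfp90 transgene. None of the 10 members passed the threshold of 0.05 on the adjusted p (limma, genotype and sex in the model, Benjamini-Hochberg over all 22218 features). The background is the same: 0.0% of all features passed, and 6.91% had an unadjusted p under 0.05, against 0 of the 10 members. Of the members, 4 had a positive difference and 6 a negative one, with a median of -0.02, where the median of all features was -0.01. No member separated the 3 transgenic from the 4 WT animals without overlap, which 3.17% of all features did upward and 2.84% downward.

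Nr1d1 had the largest difference in size. Its mean was -0.37 ± 0.53 in the transgenic group (SD, n = 3), against 0.13 ± 0.47 in the WT group (SD, n = 4), a difference of -0.53 ± 0.30 SE (95% interval -1.23 to 0.18, adjusted p = 0.761 in limma). In the 5 males alone it was -0.80 ± 0.33 SE (1.75-fold lower, adjusted p = 0.708 in limma), with 0 of 10 members past the threshold where 0.0315% of all features were. It was the 1 member lower at an unadjusted p under 0.05 there, as 3.04% of all features were. Between the females it went the other way, by 0.13. Leaving out each animal in turn gave differences from -0.80 to -0.29, the weakest without transgenic male 1. The mean of Cry1 was -0.12 ± 0.21 in the transgenic group (SD, n = 3), against 0.06 ± 0.09 in the WT group (SD, n = 4), a difference of -0.16 ± 0.10 SE (adjusted p = 0.788 in limma). Cry1 differed by -0.091 ± 0.11 SE in the males alone. Per2 differed by -0.17 ± 0.29 SE with all animals and by 0.27 ± 0.18 SE in the males alone, so its direction turned without the females. The remaining members differed in the males by -0.16 (Nr1d2) to 0.18 (Per1).

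The intervals show what size of difference these arrays leave possible. For Dbp the difference was 0.0009 with a 95% interval of -0.23 to 0.23, and for Tef -0.0016 with -0.22 to 0.22. Arntl differed by 0.03 (-0.16 to 0.23) and Clock by 0.03 (-0.17 to 0.22). Per3 differed by -0.04 (-0.23 to 0.16), Per1 by 0.07 (-0.18 to 0.33) and Nr1d2 by -0.10 (-0.45 to 0.25). Only Nr1d1 and Per2 had intervals reaching beyond 0.5 in size, down to -1.23 and -0.84 and, for Per2, up to 0.50. The intervals assume arrays of independent animals. The labels call the WT mice littermates, but give no litter for any animal. They also do not say whether the WT animals measured were in the pool, which held as many WT mice, of both sexes. If so, the WT ratios would not be independent of the pool or of each other, and this was not tested.

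**Figure D2:**
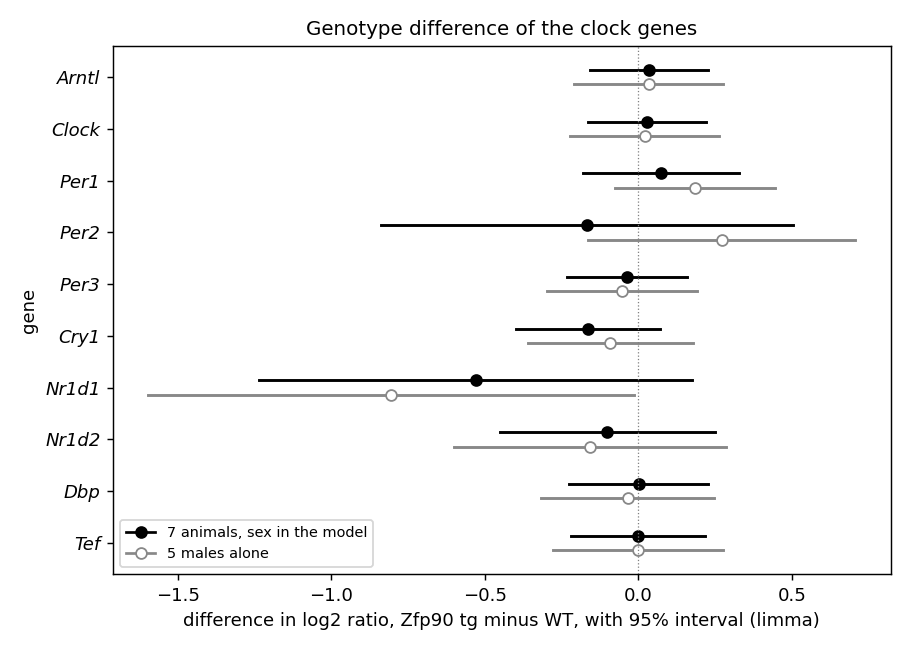
Difference in log2 ratio, Zfp90 tg minus WT (horizontal axis), with 95% intervals from limma for each clock gene (vertical axis). Filled points use 7 animals with sex in the model and open points the 5 males alone; the interval of every gene spans 0 with 7 animals, and that of Nr1d1 lies below 0 in the males, where it did not pass the adjusted threshold.

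Each animal's phase pattern was described by setting the mean of Arntl, Clock and Cry1 against the mean of Nr1d1, Nr1d2, Dbp, Tef and Per3, which peak at another time of day. The difference of these means was -0.10 in the transgenic female and 0.11 and 0.20 in transgenic males 1 and 2, against 0.04 in the WT female and -0.13, -0.02 and 0.01 in WT males 2, 3 and 4. Transgenic male 2 was the highest and WT male 2 the lowest, and the genotypes overlapped. These animals differed more in the second set, which averaged -0.21 in transgenic male 2 and 0.09 in WT male 2. The first set averaged -0.01 and -0.05 in the same animals, and lay between -0.08 and 0.06 over all 7.

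The index rested on Nr1d1. Without it, chosen for this check after its values were seen, the index was -0.07 in the transgenic female and -0.07 and 0.14 in the transgenic males, against 0.05 in the WT female and -0.04, -0.14 and 0.14 in the WT males. Transgenic male 1 thus changed sign, and WT male 4 read as high as transgenic male 2. With Npas2 and Nfil3 added to the first set, and Per1 and Per2 to the second, it was -0.04, -0.05 and -0.07 in the transgenic animals, against -0.14 in the WT female and -0.10, 0.02 and 0.08 in the WT males. The order of the animals therefore changed with the members used. Arntl and Dbp stood farthest apart on opposite sides of 0 in WT male 2, at -0.22 and 0.08. The planned correlation of each member with Arntl is not given, because Arntl fell into separate clusters of 2 females and 5 males, neither of which holds 6 animals.

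**Figure D3:**
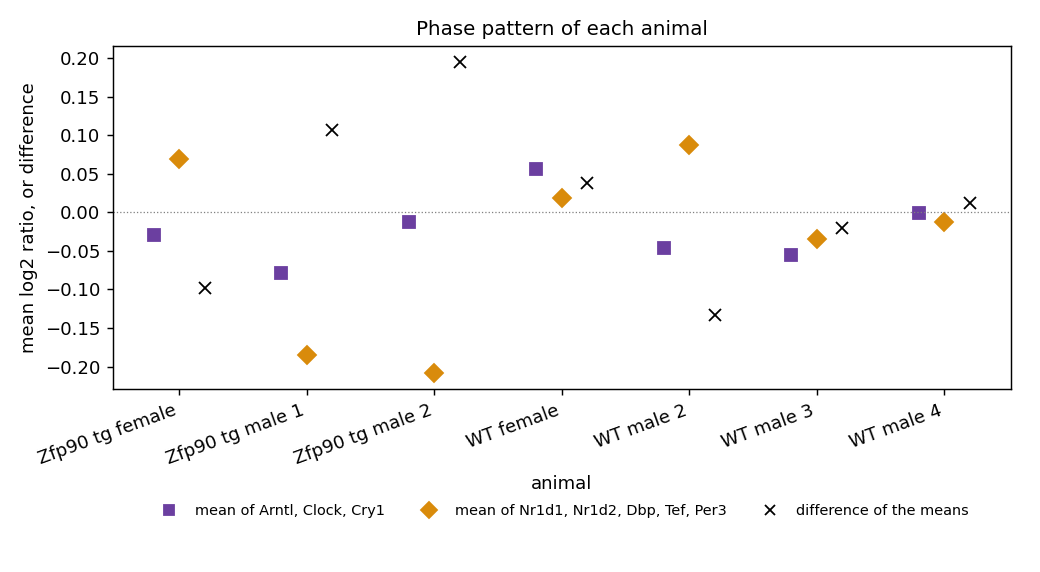
Mean log2 ratio of Arntl, Clock and Cry1 (squares), of Nr1d1, Nr1d2, Dbp, Tef and Per3 (diamonds), and the difference of these means (crosses), in each animal along the horizontal axis, Zfp90 tg animals first. The difference runs from -0.13 in WT male 2 to 0.20 in transgenic male 2, and animals of both genotypes lie on both sides of 0.

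Between the sexes, Arntl had the largest difference of the members. It averaged 0.22 ± 0.03 (SD, n = 2) in females and -0.15 ± 0.05 (SD, n = 5) in males, a 1.29-fold difference of 0.36 ± 0.09 SE that did not pass (95% interval 0.15 to 0.57, adjusted p = 0.243 in limma). The difference stayed between 0.35 and 0.38 with each animal left out in turn. It was the only member in which females lay above all males, as 6.04% of all features did, and no member had females below all males (6.83% of all features). Of the 10 members 0 passed, where 0.351% of all features did. At an unadjusted p under 0.05 there was 1 member, Arntl, where 9.23% of all features were. With 10 members, these counts of 1 are close to the shares over all features. Markers of Kupffer cells and macrophages separated the sexes too: the median of 11 measured of 12 listed genes was 0.43 in the transgenic female and 0.82 in the WT female, against 0.33 and 0.18 in the transgenic males and -0.68, -0.67 and -0.13 in the WT males. Stellate cell markers were higher in females in 7 of 7 measured genes (8 listed), with a median of 0.13 in the transgenic female and 0.22 in the WT female, against at most 0.034 in the males of either genotype. Of 8 endothelial markers 7 were higher in females, with a median of 0.095 in the transgenic female and 0.097 in the WT female, against at most 0.028 in the males. In females 52.3% of all features were higher, as were 8 of 11 lymphocyte and 4 of 6 neutrophil markers. Lower in females were 7 of 10 hepatocyte, 5 of 6 bile duct and 5 of 6 adipocyte markers. Red blood cell and exocrine pancreas markers divided evenly. Whether any of these cells have a part in the Arntl values was not tested.

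The remaining members did not separate the sexes. Cry1 averaged -0.18 ± 0.24 (SD, n = 2) in females and 0.05 ± 0.09 (SD, n = 5) in males, and the low mean came from the transgenic female. Csnk1e, the kinase that marks Per proteins for breakdown, is no member. Both females lay above all males in it, as in Arntl and in 6.04% of all features. However, both transgenic males were also above the pool. They lay above all WT males too, as in 11.2% of all features. Csnk1e read 0.40 in the transgenic female and 0.29 in the WT female. Transgenic males 1 and 2 read 0.10 and 0.07, and the WT males at most -0.14. It did not pass either (adjusted p = 0.209 in limma).

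The difference of the genotype effect between the sexes was fitted as an interaction, with 1 female per genotype, so that its spread came from the males. The WT female, which read Zfp90 like a transgenic animal, cannot be left out of that fit. A difference between the females may therefore not be one between genotypes. None of the members passed, where 0.072% of all features did. Per2 came nearest: the females differed by -1.22 (transgenic minus WT), while transgenic males averaged 0.27 above WT males, an interaction of -1.49 ± 0.33 SE (adjusted p = 0.307 in limma). At an unadjusted p under 0.05 Per2 was the only 1 of the 10 members, where 8.42% of all features were. Per2 is known in mouse liver to respond to heat shock factor and serum cues as well as to the local clock. The median of 9 measured genes listed for temperature and serum cues was -0.62 in the transgenic female and -0.04 and -0.21 in the transgenic males, against 0.19 in the WT female and -0.09 to -0.01 in the WT males. The list mixes heat shock genes with the cold-inducible Rbm3, so its median does not read a single response. Of these genes, Rbm3 read -1.14 in the transgenic female and 0.66 in the WT female, and the chaperone Hsp90aa1 read -1.03 in the transgenic female and -0.59 in the WT female. The transgenic female was lowest of the 7 animals in Per2 and in the median of these genes, and lowest in 5 of the 9 genes themselves. The growth-response gene Fos was highest in that animal. The share of all features lowest in it was not counted. It was also lowest in 5 of 10 hepatocyte markers and 6 of 20 other clock genes, but in 0 of 10 fasting and 1 of 11 feeding genes. Its array had the largest SD over all features, 0.33, against 0.21 to 0.30 in the others. A part of these cues in the Per2 value was not tested.

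Other genes of the clock were compared from a list of 24, of which 20 were measured. None passed, 14 had a positive and 6 a negative difference, and the median was 0.04. In the males alone 12 were positive and 8 negative, with a median of 0.033, and 0 passed. Nfil3, a repressor that binds the same D-box as Dbp and is itself repressed by the Nr1d proteins, read -0.61, -0.40 and -0.81 in the transgenic animals, against -0.31 in the WT female and 0.06, -0.04 and 0.33 in the WT males. All 3 transgenic animals lay below all 4 WT animals, as in 2.84% of all features. The difference of -0.60 ± 0.16 SE did not pass (adjusted p = 0.653 in limma). In the males alone it was -0.72. Hlf, the third PAR bZIP factor, read -0.71, -0.45 and -0.04 in the transgenic animals, against -0.32 in the WT female and 0.36, -0.40 and 0.56 in the WT males. The genotypes overlapped in Hlf (difference -0.41 in all animals and -0.42 in the males alone, adjusted p = 0.761 and 0.941 in limma), which was averaged over 2 probes. Csnk1e differed by 0.24 ± 0.09 SE (adjusted p = 0.718) and the kinase Gsk3b by 0.22 ± 0.11 SE (adjusted p = 0.746), neither past the threshold in limma. They differed by 0.29 and 0.19 in the males alone. Cry2, at -0.12 to 0.09 over all animals, stayed close to the pool.

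**Figure D4:**
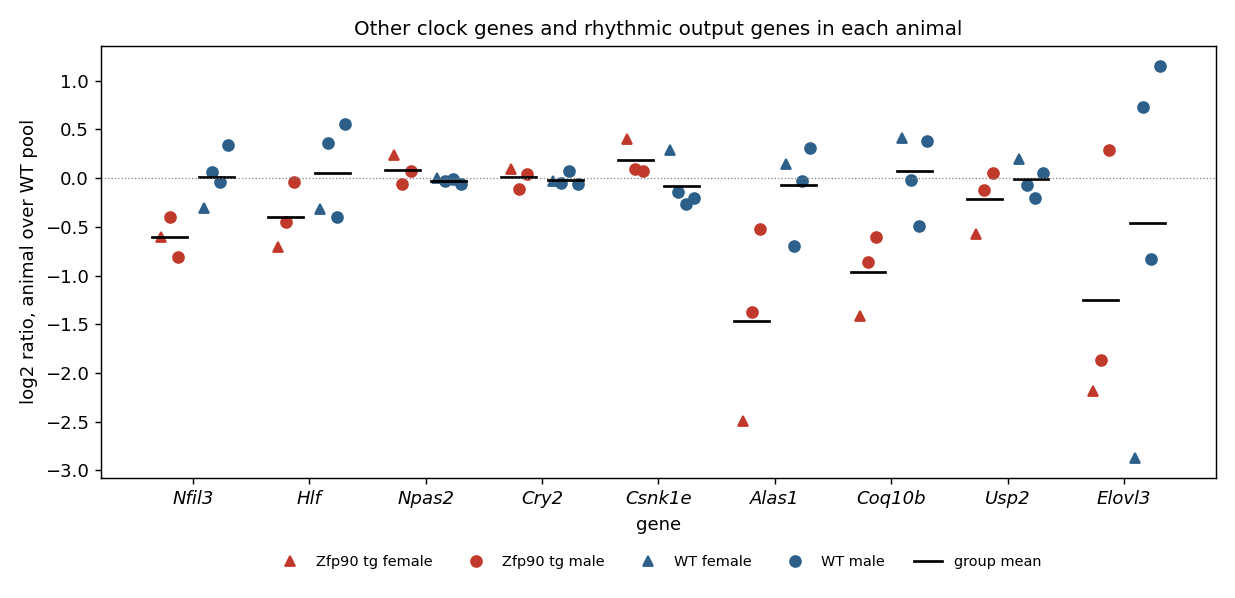
Log2 ratio to the WT pool (vertical axis) of 9 clock genes and rhythmic outputs outside the 10 members (horizontal axis), 1 point per animal, Zfp90 tg left of WT, with bars for group means. Nfil3 and Coq10b show no overlap between genotypes, with the transgenic animals lower, as in 2.84% of all features. In Alas1 the transgenic animals run from -2.49 to -0.52 and overlap WT male 2 at -0.70.

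Several output genes had wider ranges than any member, and the listed genes differed in both directions. Of 10 measured genes listed as PAR bZIP targets and xenobiotic outputs (12 listed), 5 had a positive and 5 a negative difference and 0 passed, with a median of -0.05. Within the males 3 were positive and 7 negative, with a median of -0.13, and 0 passed. Alas1, the first enzyme of haem synthesis, read -2.49, -1.37 and -0.52 in the transgenic animals, against 0.15 in the WT female and -0.70, -0.03 and 0.31 in the WT males (difference -1.34 ± 0.41 SE, adjusted p = 0.677 in limma, and -0.80 in the males alone). Cyp2b10 and Cyp2a4, drug- and steroid-metabolizing enzymes, differed the other way, by 0.62 ± 0.09 SE and 0.60 ± 0.21 SE (adjusted p = 0.475 and 0.718 in limma), and by 0.56 and 0.54 in the males alone. All 3 transgenic animals lay above all 4 WT animals in Cyp2b10 and below them in Nr1i3, as in 3.17% and 2.84% of all features.

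Of 18 measured rhythmic output genes (20 listed), 8 had a positive and 10 a negative difference, 0 passed and the median was -0.03 (0.08 in the males alone, with 13 positive and 5 negative). Coq10b, a coenzyme Q binding protein, read -1.42, -0.86 and -0.60 in the transgenic animals. The WT female read 0.41 and the WT males -0.02, -0.49 and 0.38. The transgenic animals were lower without overlap, as in 2.84% of all features. The difference was -1.02 ± 0.27 SE (adjusted p = 0.664 in limma). In the males alone it was -0.69. The bile acid transporter Slc10a2 read -0.21, 1.32 and 1.86 in the transgenic animals, against -0.77 in the WT female and 0.23, 0.12 and 0.52 in the WT males (1.08 ± 0.20 SE, adjusted p = 0.495 in limma, and 1.30 in the males alone). Rgs16, a regulator of G protein signalling, read 1.71, 0.27 and 1.73 in the transgenic animals, against -0.04 in the WT female and -0.25, 0.86 and -1.36 in the WT males (1.40 ± 0.54 SE, adjusted p = 0.720 in limma, and 1.25 in the males alone).

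Genes that follow meals and body temperature in the liver gave the setting in which the clock genes were read. Of 11 measured feeding genes (12 listed) all had a positive difference, with a median of 0.41, led by Scd1, Acly and Elovl6 (adjusted p = 0.0947, 0.0947 and 0.475 in limma). Of 10 measured fasting genes (12 listed), 8 had a negative difference, with a median of -0.21, and those with the smallest p were Ppargc1a (0.46 ± 0.14 SE), Pck1 (-0.69 ± 0.23 SE) and Pdk4 (-0.31 ± 0.13 SE). Of the 9 genes of temperature and serum cues (12 listed), 8 had a negative difference, with a median of -0.25, and Hsp90aa1 (-0.47 ± 0.12 SE), Hsph1 (-0.30 ± 0.13 SE) and Dnajb1 (-0.33 ± 0.15 SE) had the smallest p. In these lists 0 genes passed, as for all features, of which 48.2% had a positive difference. In the males alone 9 feeding genes were positive and 2 negative, with a median of 0.61. Of the fasting genes 4 were positive and 6 negative there, with a median of -0.13, and of the cue genes 3 were positive and 6 negative, with a median of -0.13. The leading genes differed in the males by 1.40 (Scd1), 1.40 (Acly), 0.67 (Elovl6), 0.32 (Ppargc1a), -0.55 (Pck1), -0.19 (Pdk4), -0.48 (Hsp90aa1), -0.19 (Hsph1) and -0.19 (Dnajb1), and 1 gene of the 3 lists passed, Scd1 (adjusted p = 0.026 in limma). Of the Kupffer cell and macrophage markers, 9 of the 11 measured had a positive difference, with a median of 0.46. In the males alone 9 of 11 were positive, with a median of 0.81. Between the females their median went the other way, at 0.43 in the transgenic and 0.82 in the WT female. All 8 exocrine pancreas and all 4 red blood cell markers measured were positive with all animals, but 5 and 2 in the males alone. Hepatocyte, neutrophil and bile duct markers divided evenly with all animals. Positive were 7 of 11 lymphocyte, 5 of 8 endothelial, 3 of 7 stellate cell and 4 of 6 adipocyte markers. The part of any of these cells in these differences was not tested.

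The named genes most like Arntl and Dbp over the 7 animals were ranked by Pearson's r among 2641 genes outside the members with an SD of at least 0.3. For Arntl the list held the female-biased sulfotransferases Sult3a1 and Sult2a4, with Cyp39a1, Rnf170 and Zfp820. The genes least like it were Snap47, Adh4, Susd4, the Y-linked Kdm5d and Trip4. Their r is not printed because the females and males formed separate clusters. For Dbp the highest were Rnf186, Kank2, Phlda1, Olfr701 and Ccl9 (r from 0.825 to 0.930, n = 7), and the lowest were Tsc22d3, Jaml, Zfp810, Veph1 and Cebpd (r from -0.944 to -0.921). Tsc22d3, a glucocorticoid-induced gene, read -0.52, -0.32 and 0.64 in the transgenic animals, against 0.31 in the WT female and -0.39, -0.35 and 0.36 in the WT males. These likenesses describe 7 arrays that share 1 pool, and are the extremes among 2641 genes. Dbp itself ranged over only 0.21 log2 units, so no relation to it is read from its list. Neither list of like genes held another gene of the clock list of 24, but Tsc22d3 is on the list of 20 rhythmic output genes.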

How the data were processed

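Liver RNA of 7 mice was measured on 2-colour arrays, and 1 column of ratios per animal was used for 23574 probes. The deposited values were taken as log10 ratios, since they end at exactly -2 and 2 and the column medians lie near 0; per the labels, Cy3 held the pool and Cy5 the animal, and dye swaps are mentioned in the design text. How swaps were merged, the background correction and the normalization are not given in the sources used here. Correlations between arrays over all probes went down to -0.497 (the transgenic female with WT male 4); the direction was kept because Kdm5d set it array by array, and with every sign turned the differences would swap direction at the same p.

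The log2 scale was reached by a factor of 3.32. GEO's platform annotation gave 1 symbol for 17824 probes, several for 50 and none there for 5700; probes of 1 gene were averaged. Differences were fitted with limma 3.58.1 (R 4.3.3), lmFit and eBayes, with genotype and sex, and adjusted by Benjamini-Hochberg over all features. The fit was tested on simulated data. The members and lists were chosen with earlier results of these data known. Text names all members, Zfp90 and Kdm5d, up to 3 genes with the smallest p per list, and the likest genes. After their values were seen, Npas2, Cry2, Hlf, Sirt1, Nr1i3, Fos, Rbm3, Tsc22d3 and Elovl3 were named, and Usp2 and Elovl3 plotted. Alternatives covered scaling, covariates, animals, probes, features and the variance model.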

Additional observations from a re-analysis of the deposited data

Results flagged for a closer look

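Per1 was flagged because the 2 females and the males differed in opposite directions. The transgenic female lay below the WT female, with a difference of -0.19, while both transgenic males lay above all 3 WT males, with a mean difference of 0.18. The WT female read Zfp90 like the transgenic female (0.37 against 0.34), so -0.19 may not be a difference between genotypes. The interaction of genotype and sex, with 1 female per genotype, was -0.38 ± 0.20 SE and did not pass (adjusted p = 0.669 in limma). Among all features, 11.2% had both transgenic males above all WT males. No WT animal stood apart from the other 3 by Dixon's criterion in any of the 10 members, and groups of 3 were not tested.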

How the results depend on the processing

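The count of members past the threshold was 0 for genotype and 0 for sex under every alternative run. Over all features the genotype count of 0 (1536 at an unadjusted p under 0.05) became 7 in the 5 males alone and 4 in the features with the larger mean absolute ratio, and ran from 0 to 7 with each animal left out. The sex count of 78 became 47 with quantile normalization and 162 in the features with the larger ratios, and ran from 36 (without the WT female) to 254 (without the transgenic female); without transgenic male 2, WT male 2 or WT male 4 it was 45, 39 or 48.

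Genotype differences that turned were small or those of Per2. In the males alone Per2 read 0.27, Dbp -0.035 and Tef 0.00011. Tef also read 0.0065 with each array centred, 0.0095 with quantile normalization and 0.0083 without the sex term. With each animal left out, the ranges that crossed 0 were -0.40 to 0.27 for Per2, -0.060 to 0.0013 for Per3, -0.18 to 0.0061 for Nr1d2, -0.048 to 0.076 for Dbp and -0.040 to 0.042 for Tef. For sex, Dbp read -0.011 centred and -0.024 with quantile normalization, and the ranges that crossed 0 were -0.015 to 0.36 for Per1, -1.05 to 0.44 for Per2, -0.050 to 0.0088 for Per3, -0.10 to 0.83 for Nr1d1 and -0.055 to 0.066 for Dbp. The cause was not tested.

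The phase index kept its value with each array centred, which moves all genes of an animal alike. With Npas2, Nfil3, Per1 and Per2 added it moved to -0.047 and -0.071 in transgenic males 1 and 2 and to -0.14 in the WT female. Without Nr1d1, an alternative chosen after seeing the data, it moved to -0.065 in transgenic male 1 and to -0.037, -0.14 and 0.14 in WT males 2, 3 and 4. The planned correlations with Arntl and their alternatives were not run, since the sexes form separate clusters in Arntl. No paired analysis was possible because the genotypes share fewer than 2 replicate numbers within a sex. Signal over background, unknown here, limits every ratio near 0.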

Other observations

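Among the 5 males, Nr1d1 ordered the animals as WT male 4, WT male 2, transgenic male 2, WT male 3 and transgenic male 1, a pattern noticed after its values were seen. Of the 87 measured genes of the clock lists and the other members, 3 had the same order: Hlf, the deacetylase Sirt1 and the fatty acid elongase Elovl3. Of all features, 2.79% had it, a share close to that of these lists, which also hold the feeding, fasting and cue genes. No other member had this order. Elovl3 spanned the widest range of the 3 genes, at 0.29 and -1.87 in transgenic males 2 and 1, against 1.15, 0.72 and -0.83 in WT males 4, 2 and 3. It read -2.18 in the transgenic female and -2.87 in the WT female, below all males.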
